A study of Mus musculus with 27 samples.

Results

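The effect of deleting 1 copy of Brg1 in hearts that already lack 1 copy of Tbx5 was examined by comparing 3 arrays titled Tbx5+/-;Brg1+/- with 5 arrays titled Tbx5+/-, 8 of the 27 arrays of the study. The arrays were chosen by these titles, and no measured value entered the choice. Each array measured total RNA from a mouse embryonic heart at E11.5, in mid-gestation, on a mixed C57Bl/6 and BLKSW strain background. All 8 arrays carry the Tbx5 deletion in their label, so by label the 2 groups differ in the added Brg1 deletion. The labels give neither the alleles nor how the deletions were made, and they do not state whether an array holds 1 embryo or a pool. The same Brg1 contrast exists on other arrays of the study, as 6 Brg1+/- against 6 wild-type arrays and as 3 Nkx2-5+/-;Brg1+/- against 4 Nkx2-5+/- arrays, and these are used only to show where the Tbx5+/- background differs. Values are RMA log2 signals, the authors' summary of the probes of each gene, so a difference of 1 is a 2-fold difference. Levels of different genes cannot be set against each other on this scale. A gene was called when its limma p, adjusted by the Benjamini-Hochberg method over all 19935 genes, was under 0.05. The number of arrays limits the precision, and since the labels do not say that arrays are separate embryos, the p-values measure the spread between these arrays.

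Brg1, encoded by Smarca4, is the ATPase that drives the BAF chromatin remodelling complexes, which move nucleosomes and open regulatory DNA. Tbx5 is a T-box transcription factor of the atria, the left ventricle and the conduction system. Loss of 1 copy of TBX5 causes Holt-Oram syndrome in humans, with septal and conduction defects. Tbx5 can recruit BAF complexes to heart genes, and Gja5 (connexin 40, the gap junction protein of atrial muscle and the fast conduction system) and Nppa (atrial natriuretic peptide) are textbook targets of Tbx5. The comparison asks how heart gene expression differs when both the factor and its chromatin partner are at reduced dose.

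The arrays carried the markers of heart muscle. The mean of 33 sarcomere and Z-disc genes was 10.68, 10.73 and 10.57 in the 3 Tbx5+/-;Brg1+/- arrays, against 10.62 to 10.76 in the 5 Tbx5+/- arrays. By the Y-linked genes and Xist, 2 Tbx5+/-;Brg1+/- arrays were female-like and 1 was male-like, against 3 and 2 of the Tbx5+/- arrays.

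The array labelled Tbx5+/-;Brg1+/- replicate 3 stood apart from the other arrays of its label in 2 ways. Its Smarca4 signal was 10.01. The 15 arrays with no Brg1 deletion in the label spanned 9.57 to 10.23, and the other 11 arrays that have one spanned 9.16 to 9.64. Its mean over 18 erythroid genes, markers of red blood cells, was 10.95, against 9.74 and 9.56 in replicates 1 and 2 and 9.27 to 10.61 in Tbx5+/- arrays. The same array was low in several lists of heart cell types, by 0.29 below the Tbx5+/- mean in chamber myocardium genes, by 0.27 in cushion mesenchyme genes, by 0.26 in collagens and by 0.23 in endothelial genes. Tbx5+/- replicate 3 was as low in the endothelial list, at -0.23. The part of these features in the results was not tested. List balances are therefore given with and without Tbx5+/-;Brg1+/- replicate 3, and so is each difference of a single gene that moved by 0.05 or more on the log2 scale.

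Smarca4 (probe set 10583697), the gene deleted by the added allele, had signals of 9.51, 9.64 and 10.01 in the Tbx5+/-;Brg1+/- arrays, against 9.92, 10.02, 10.10, 10.10 and 10.23 in the Tbx5+/- arrays. Replicates 1 and 2 lay below all 5 Tbx5+/- arrays, and replicate 3 lay among them. The difference was -0.36 (SE 0.12, unadjusted p = 0.0062, limma adjusted p = 1.0), which is 1.28-fold lower. An exact two-sided permutation test over the 56 assignments of these arrays gave p = 0.0714, where 0.0357 is the smallest p it can give. Without replicate 3 the difference was -0.50 (SE 0.13, unadjusted p = 0.00053) and still missed the adjusted threshold. The corresponding exact permutation p was 0.0952, the smallest that 2 arrays against 5 allow.

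With all arrays, Smarca4 passed the test in the wild-type background. It had a median of 9.36 (range 9.16 to 9.45) in the 6 Brg1+/- arrays, against a median of 10.07 (range 9.95 to 10.16) in the 6 wild-type arrays. Smarca4 fell by 0.74 there (SE 0.09, limma adjusted p = 0.000311). In the 3 Nkx2-5+/-;Brg1+/- arrays it ranged from 9.26 to 9.60, against 9.57 to 10.08 in the 4 Nkx2-5+/- arrays, with a difference of -0.45 (SE 0.13) that did not pass (limma adjusted p = 0.0816). The 9.57 belongs to Nkx2-5+/- replicate 3, and without this array and Tbx5+/-;Brg1+/- replicate 3 the difference was -0.56 (SE 0.11, limma adjusted p = 0.00168). The difference of differences between the Tbx5+/- and wild-type backgrounds was 0.39 (SE 0.15, unadjusted p = 0.017), which did not pass after adjustment over all genes (limma adjusted p = 1.0). Without Tbx5+/-;Brg1+/- replicate 3 it was 0.24 (SE 0.15, unadjusted p = 0.13).

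**Figure D1:**
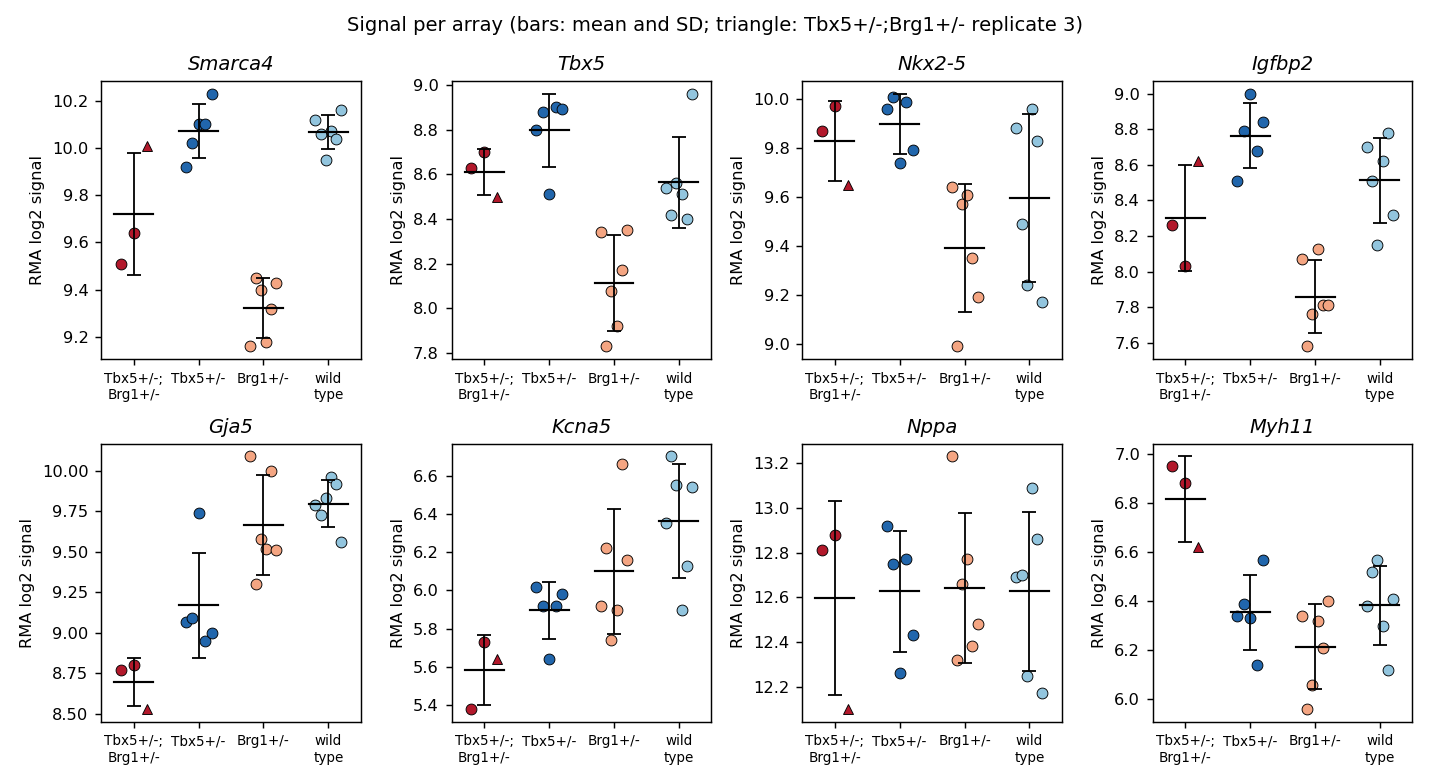
Each panel plots the RMA log2 signal of 1 gene, with a point per array in the Tbx5+/-;Brg1+/-, Tbx5+/-, Brg1+/- and wild-type groups, a horizontal line at the group mean and bars of 1 SD, and the triangle marks Tbx5+/-;Brg1+/- replicate 3. Gja5 shows no overlap between the 3 Tbx5+/-;Brg1+/- arrays (8.53 to 8.80) and the 5 Tbx5+/- arrays (8.95 to 9.74), and Smarca4 of replicate 3 (10.01) lies among the Tbx5+/- arrays.

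The other subunits of the complexes showed no shared direction. Of the 28 BAF subunit genes measured, 13 were above 0 and 15 below, with a median difference of 0.00, and 0 were called. Without replicate 3, 16 were above 0 and the median was 0.02. Smarca4 was the gene with the lowest value in the list and the 1 member at an unadjusted p under 0.05. Brd7, a bromodomain subunit of the PBAF form, stood at -0.21 (-0.15 without replicate 3). Bicra, a subunit of the non-canonical form, had signals of 6.90, 7.01 and 6.93 in Tbx5+/-;Brg1+/- arrays, against 6.84, 6.79, 6.60, 6.84 and 6.77 in Tbx5+/- arrays. The Bicra groups did not overlap, with a difference of 0.18 (SE 0.11).

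Neither Tbx5 nor its partner factor Nkx2-5 passed the test. Tbx5 had signals of 8.63, 8.70 and 8.50 in Tbx5+/-;Brg1+/- arrays, against 8.80, 8.88, 8.51, 8.90 and 8.89 in Tbx5+/- arrays, and its difference was -0.18 (SE 0.15), or -0.13 without replicate 3. Its groups overlapped through Tbx5+/- replicate 3. Tbx5 ranged from 8.4 to 8.96 in wild-type arrays and from 7.83 to 8.35 in Brg1+/- arrays, so the Tbx5+/- arrays showed no drop in this signal. Since the deleted stretch of Tbx5 is not stated, the signal is no check of the Tbx5 genotypes. Nkx2-5 stood at -0.06 (SE 0.19) with all arrays and at 0.03 without replicate 3.

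Over the whole array, limma called 0 of 19935 genes between Tbx5+/-;Brg1+/- and Tbx5+/- hearts (0%), with a smallest adjusted p of 0.639. At an unadjusted p under 0.05 there were 494 genes (2.48%), of which 348 had higher signals in Tbx5+/-;Brg1+/- hearts (1.75%) and 146 lower ones (0.732%). That share of 2.48% is below the share of 0.05 that the threshold lets through by chance. In 361 genes every Tbx5+/-;Brg1+/- array lay above every Tbx5+/- array (1.81%), and in 366 every array lay below (1.84%). Of the 56 assignments of these arrays, a share of 0.0357 has no overlap, counting both directions. The shares of genes are near this chance share, so lack of overlap does not by itself mark a gene. Without replicate 3, again 0 genes were called, with a smallest adjusted p of 0.499 and 450 genes at an unadjusted p under 0.05 (2.26%). The 2 sets shared 237 genes, which is 48.0% of the 494 and 52.7% of the 450. The sign of the difference was shared by 78.4% of all genes between the fits with and without replicate 3. A fit to these 2 groups alone gave 1003 genes at an unadjusted p under 0.05 and also called 0.

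The genes with small p were mostly faint. A mean signal below log2 5 was held by 263 of the 494 genes (53.2%), against 24.0% of all genes, and a mean of log2 8 or more by 14 of them (2.83%), against 25.9% of all genes. Differences were small throughout, with a median size of 0.0792 and a 99th percentile of 0.376. Past 1.5-fold there were 16 genes, 5 of them higher in Tbx5+/-;Brg1+/- hearts, and past 2-fold there was 1. That gene was the liver gene Afp, at -1.66 (SE 0.94), or -1.33 without replicate 3.

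**Figure D2:**
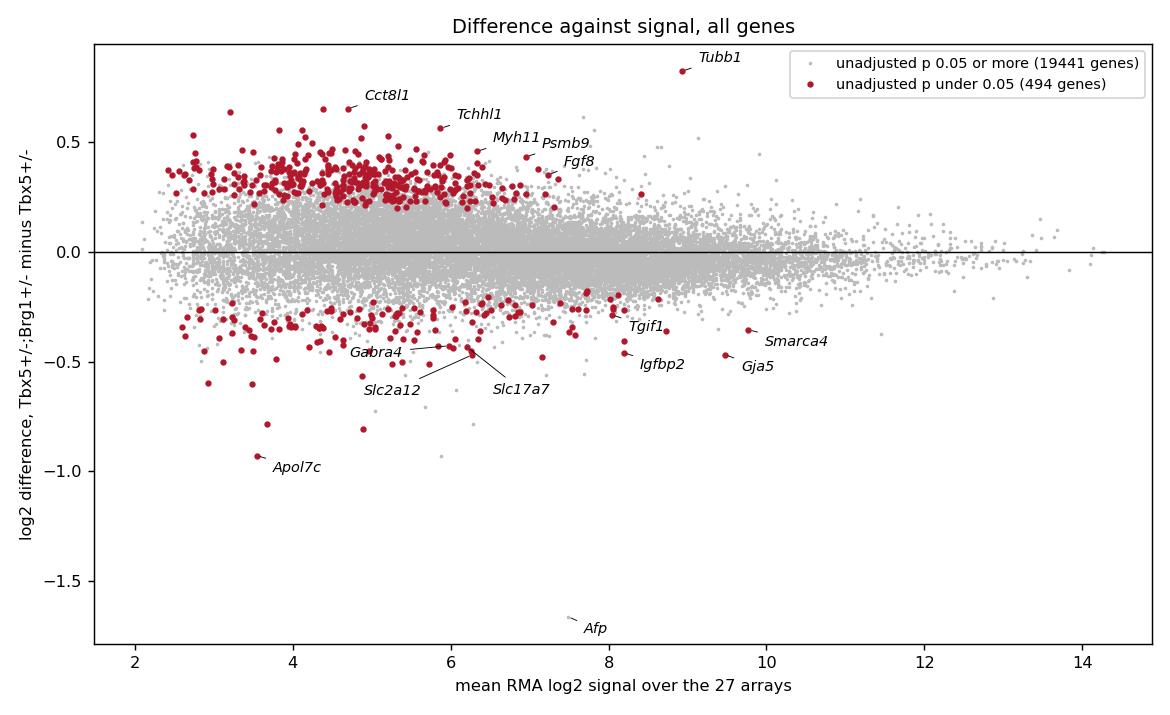
Each point is 1 of 19935 genes, with its mean RMA log2 signal over the 27 arrays on the x axis and the log2 difference of Tbx5+/-;Brg1+/- minus Tbx5+/- on the y axis, in red where the unadjusted limma p was under 0.05. The 494 red genes crowd at the faint end, with 263 of them below a mean of log2 5, and Smarca4, Gja5 and Igfbp2 stand out among the bright genes below 0.

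Among genes with higher values in Tbx5+/-;Brg1+/- hearts, the 12 with the smallest p included the smooth muscle myosin heavy chain gene Myh11 (probe set 10437885). Its signals were 6.95, 6.88 and 6.62 in Tbx5+/-;Brg1+/- arrays, against 6.34, 6.39, 6.33, 6.14 and 6.57 in Tbx5+/- arrays. Every Tbx5+/-;Brg1+/- array lay above every Tbx5+/- array, replicate 3 by the least. The difference was 0.46 (SE 0.12, unadjusted p = 0.00084, limma adjusted p = 1.0), or 1.37-fold, and 0.56 without replicate 3. Myh11 had a median of 6.26 in Brg1+/- arrays (range 5.96 to 6.40), against 6.40 in wild-type arrays (range 6.12 to 6.57), a difference of -0.17 (SE 0.10). It stood at 0.37 (SE 0.13) between Nkx2-5+/-;Brg1+/- and Nkx2-5+/- hearts, and at 0.28 (SE 0.12) without Nkx2-5+/- replicate 3 and Tbx5+/-;Brg1+/- replicate 3. The difference of differences between the Tbx5+/- and wild-type backgrounds was 0.63 (SE 0.16, unadjusted p = 0.00039), and 0.73 (SE 0.17) without replicate 3. With all arrays it did not pass over all genes (limma adjusted p = 1.0). It shares arrays with the comparison that picked Myh11 by its small p, so its unadjusted p is not separate support.

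The smooth muscle list as a whole was mixed in sign. Of its 13 members, Myh11 included, 5 were above 0 and 8 below with all arrays, the median difference was -0.05, and 0 were called. Without replicate 3, 8 members were above 0 and the median was 0.04. Lmod1, which nucleates actin filaments in smooth muscle, stood at 0.35 (SE 0.15, unadjusted p = 0.023; 0.29 without replicate 3) and overlapped between groups. Actg2, the enteric smooth muscle actin, stood at 0.17 (SE 0.17) with all arrays and at 0.28 without replicate 3.

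Of the other genes with the smallest p on the higher side, Tchhl1, a relative of the hair follicle protein trichohyalin, had signals of 5.96, 6.33 and 6.12 in Tbx5+/-;Brg1+/- arrays, against 5.70, 5.72, 5.36, 5.44 and 5.65 in Tbx5+/- arrays. Its groups did not overlap, and the difference was 0.56 (SE 0.12, unadjusted p = 6.6e-05, limma adjusted p = 0.639). Cct8l1, a relative of a chaperonin subunit, stood at 0.65 (SE 0.14, unadjusted p = 9.6e-05, limma adjusted p = 0.639) with a mean signal of 4.70 over all arrays. Psmb9, an immunoproteasome subunit, stood at 0.43, the complement gene C4b at 0.45, Fcrl1 of B cells at 0.43, Cytip at 0.37, Clec2i at 0.40 and Sla2 at 0.35. Without replicate 3, C4b was at 0.50, Cytip at 0.42 and Sla2 at 0.29. The lens gene Bfsp2 stood at 0.35, the autophagy receptor gene Calcoco2 at 0.34 and the transporter gene Slc35d3 at 0.44. The Calcoco2 difference depended on the processing and ran from 0.0 to 0.42 over the alternatives. Psmb9 was the brightest of these, with 7.27, 7.20 and 7.14 in Tbx5+/-;Brg1+/- arrays, against 6.61, 6.57, 6.75, 6.94 and 6.98 in Tbx5+/- arrays, and no overlap. In the leukocyte and platelet list 10 of 21 members were above 0, with a median of -0.02, and 12 with a median of 0.04 without replicate 3.

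Igfbp2 (probe set 10347277), a secreted binding protein of insulin-like growth factors, had the smallest p on the lower side among genes with a mean of log2 8 or more. Its signals were 8.26, 8.03 and 8.62 in Tbx5+/-;Brg1+/- arrays, against 8.51, 8.79, 9.0, 8.68 and 8.84 in Tbx5+/- arrays. Replicates 1 and 2 lay below all Tbx5+/- arrays, and replicate 3, the array with a Smarca4 signal like those without a Brg1 deletion, lay inside their range. The difference was -0.46 (SE 0.14, unadjusted p = 0.0033, limma adjusted p = 1.0), and -0.62 (SE 0.16, unadjusted p = 0.00049) without replicate 3. In the wild-type background Igfbp2 passed the test. Its median was 7.81 in Brg1+/- arrays (range 7.58 to 8.13), against 8.56 in wild-type arrays (range 8.15 to 8.78), and it fell by 0.65 (SE 0.11, limma adjusted p = 0.0362). That p lies near the threshold. Brg1+/- against wild type called 2 genes in the main fit, but 1 with further quantile normalization or the erythroid covariate, among others. Between the Tbx5+/- and wild-type backgrounds the Igfbp2 differences themselves differed by 0.19 (SE 0.18, unadjusted p = 0.30), and by 0.04 (SE 0.19) without replicate 3. Between Nkx2-5+/-;Brg1+/- and Nkx2-5+/- hearts Igfbp2 stood at -0.01 (SE 0.15), with a range of 7.68 to 7.83 in Nkx2-5+/-;Brg1+/- arrays and of 7.66 to 7.85 in Nkx2-5+/- arrays.

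Other genes with small p on the lower side included the glucose transporter gene Slc2a12, with signals of 6.11, 5.93 and 5.97 in Tbx5+/-;Brg1+/- arrays, against 6.81, 6.29, 6.41, 6.43 and 6.42 in Tbx5+/- arrays. Its groups did not overlap, and the difference was -0.47 (SE 0.14, unadjusted p = 0.0017). Slc17a7, a vesicular glutamate transporter, stood at -0.43, the GABA receptor subunit gene Gabra4 at -0.43 and the matrix gene Col8a1, a short-chain collagen of vessels and valves, at -0.45, each without overlap. Without replicate 3, Slc17a7 was at -0.49 and Col8a1 at -0.50. Col8a1 had 5.45, 6.27 and 6.00 in Tbx5+/-;Brg1+/- arrays, against 6.28 to 6.54 in Tbx5+/- arrays, so its groups nearly met. Its difference ran from -0.63 to -0.22 over the alternatives. The largest difference in this set was that of Apol7c, at -0.93 (SE 0.27; -0.99 without replicate 3), whose mean signal of 3.54 over all arrays is among the faint ones. Nubpl, an assembly factor of mitochondrial complex I, stood at -0.51 with overlapping groups. Epb41l4a, Prr32 and Ccdc85a stood at -0.40, -0.34 and -0.40 without overlap, and Krtap4-16 at -0.41 with overlap. Without replicate 3, Epb41l4a was at -0.47 and Krtap4-16 at -0.30.

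Gja5 was the bright gene with the largest difference on the lower side among those whose groups did not overlap. The promoter windows of Gja5 and Nppa are shown because both genes are textbook targets of Tbx5 and their values here differ. They run from 250 bases before to 50 after the start site, on the plus strand of GRCm38.p6, from RefSeq, at chr3:97032152-97032451 for Gja5 and chr4:148000472-148000771 for Nppa. Capitals mark matches to AGGTGT, the core of the T-box motif, on either strand (ACACCT on the other).
Gja5: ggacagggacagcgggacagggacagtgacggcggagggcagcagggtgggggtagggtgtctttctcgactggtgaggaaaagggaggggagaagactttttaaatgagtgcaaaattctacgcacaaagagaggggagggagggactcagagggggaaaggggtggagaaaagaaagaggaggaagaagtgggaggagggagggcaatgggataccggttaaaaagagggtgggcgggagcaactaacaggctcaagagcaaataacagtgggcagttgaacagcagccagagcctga
Nppa: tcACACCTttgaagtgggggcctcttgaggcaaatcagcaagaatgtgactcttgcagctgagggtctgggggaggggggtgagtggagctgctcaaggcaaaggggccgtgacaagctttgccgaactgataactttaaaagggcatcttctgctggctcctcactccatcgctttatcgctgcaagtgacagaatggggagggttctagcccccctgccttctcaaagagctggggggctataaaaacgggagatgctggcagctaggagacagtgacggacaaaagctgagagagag
The Nppa window held 1 match, whose first base lies at -248 from the start site, and there the longer form AGGTGTGA was met. The Gja5 window held 0, which says only that these letters are not in this window. Of 32851 promoter windows of the same length, 13.7% held the AGGTGT core and 1.28% held AGGTGTGA on either strand, the second being counted within the first.

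Gja5 (probe set 10494548) had signals of 8.77, 8.80 and 8.53 in Tbx5+/-;Brg1+/- arrays, against 9.07, 9.09, 9.74, 8.95 and 9.0 in Tbx5+/- arrays. All 3 Tbx5+/-;Brg1+/- arrays lay below all 5 Tbx5+/- arrays, and Tbx5+/- replicate 3 stood well above the rest of its group. The difference was -0.47 (SE 0.20, unadjusted p = 0.027, limma adjusted p = 1.0), or 1.38-fold lower. The exact two-sided permutation test gave p = 0.0357, the smallest p that 3 against 5 arrays can give. Any gene without overlap between these groups gives this same p, so the test adds nothing to the lack of overlap. Over all genes, 1.81% lay wholly above and 1.84% wholly below. The difference was -0.38 without Tbx5+/-;Brg1+/- replicate 3 and -0.325 without Tbx5+/- replicate 3. With 1 array fewer the permutation test cannot go below 0.0571 or 0.0952. In the wild-type background Gja5 stood at -0.13 (SE 0.16), with a median of 9.55 in Brg1+/- arrays (range 9.30 to 10.09) against 9.81 in wild-type arrays (range 9.56 to 9.96). In the Nkx2-5+/- background it stood at 0.32 (SE 0.21). Without Nkx2-5+/- replicate 3 and Tbx5+/-;Brg1+/- replicate 3 it was at 0.55 there (SE 0.19, limma adjusted p = 0.0631). The difference of differences between the Tbx5+/- and wild-type backgrounds was -0.34 (SE 0.26, unadjusted p = 0.20), and -0.25 (SE 0.28) without Tbx5+/-;Brg1+/- replicate 3.

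Nppa had signals of 12.81, 12.88 and 12.10 in Tbx5+/-;Brg1+/- arrays, against 12.92, 12.75, 12.26, 12.77 and 12.43 in Tbx5+/- arrays. The groups overlapped, and the difference was -0.03 (SE 0.25), or 0.22 without replicate 3. Nppb, the B-type natriuretic peptide gene, had 10.57, 10.70 and 9.97 in Tbx5+/-;Brg1+/- arrays, against 9.87, 10.35, 9.99, 10.14 and 10.08 in Tbx5+/- arrays. Its replicates 1 and 2 lay above all Tbx5+/- arrays and replicate 3 lay near the lowest. Nppb stood at 0.33 (SE 0.20) with all arrays and at 0.55 (SE 0.22, unadjusted p = 0.02) without replicate 3.

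The conduction, ion channel and calcium handling list had 24 of 32 members below 0, a median of -0.10 and 0 called genes, against 49.9% of all genes below 0 and a median of 0.00. Its mean over members was 0.12, 0.02 and 0.16 below the Tbx5+/- mean in the 3 Tbx5+/-;Brg1+/- arrays, while the Tbx5+/- arrays lay between -0.05 and 0.05 of that mean. Without replicate 3 the median was -0.04, with 13 members above 0. Kcna5, an atrial potassium channel, had 5.38, 5.73 and 5.64 in Tbx5+/-;Brg1+/- arrays, against 6.02, 5.92, 5.64, 5.92 and 5.98 in Tbx5+/- arrays, and its difference was -0.31 (SE 0.18). The Kcna5 groups met only through Tbx5+/- replicate 3. Vsnl1, a calcium sensor of the atria, stood at -0.20 (SE 0.19; -0.33 without replicate 3), and Kcnj8, an ATP-sensitive potassium channel, at 0.23 (SE 0.15; 0.18 without it). Of the regulators of the sinus node and conduction system, Shox2 stood at 0.17 (SE 0.23; -0.04 without replicate 3), the repressor gene Tbx3 at 0.01 (SE 0.14; 0.07) and the growth factor gene Bmp2 at -0.14 (SE 0.27; -0.21).

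Among 31 cardiac transcription factors, 22 were below 0, the median was -0.06 and 0 were called. Without replicate 3, 19 were above 0 and the median was 0.03. Nr2f1, a nuclear receptor of the atria, had signals of 6.98, 6.74 and 6.83 in Tbx5+/-;Brg1+/- arrays, against 7.19, 7.19, 7.27, 7.15 and 7.28 in Tbx5+/- arrays, without overlap. The Nr2f1 difference was -0.36 (SE 0.19, unadjusted p = 0.06), the same without replicate 3, and -0.60 (SE 0.15, limma adjusted p = 0.303) between Brg1+/- and wild-type hearts. Irx5, a ventricular repressor, stood at -0.24 with all arrays and at -0.04 without replicate 3, and Mef2d, a muscle transcription factor, at -0.15 and -0.04.

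The muscle lists had medians close to 0 with all arrays. The 33 sarcomere genes had a median of -0.04 with 24 below 0, and of 0.00 with 17 above 0 without replicate 3. Tnni1, the slow troponin I of the fetal heart, stood at -0.12, Ankrd1, a stress-responsive protein of the sarcomere, at 0.13 (0.22 without replicate 3) and Xirp2, an actin-binding protein of the intercalated disc, at 0.15. The 18 chamber myocardium genes had a median of -0.06 with 16 below 0, and of -0.01 with 9 above 0 without replicate 3. Hand1, a left ventricular transcription factor, stood at -0.22 (SE 0.18). Of 31 genes of mitochondria and fatty acid oxidation, 26 were below 0 with a median of -0.07, and without replicate 3 the median was -0.03 with 11 above 0. Acadl, the long-chain acyl-CoA dehydrogenase, had 9.59, 9.65 and 9.49 in Tbx5+/-;Brg1+/- arrays, against 10.04, 9.90, 9.82, 9.86 and 9.70 in Tbx5+/- arrays, without overlap and with a difference of -0.28 (SE 0.16). Cd36, a fatty acid transporter, stood at -0.24 and the lipid-sensing nuclear receptor gene Ppara at -0.25 (SE 0.12, unadjusted p = 0.045), or -0.34 without replicate 3. The 23 genes of glycolysis and the hypoxia response had a median of -0.07 with 6 above 0, and of -0.01 with 11 above 0 without replicate 3. With all arrays, 0 of them had an unadjusted p under 0.05.

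The lists of non-muscle heart cells had different balances with and without replicate 3. The 25 collagen and matrix genes had a median of 0.06 with 18 above 0, and of 0.19 with 24 above 0 without that array. Their mean stood 0.19 and 0.30 above the Tbx5+/- mean in replicates 1 and 2 and at -0.26 in replicate 3, while Tbx5+/- arrays ranged from -0.11 to 0.11. Col6a1, Col6a2 and Col6a3, the chains of type VI collagen, stood at 0.19, 0.17 and 0.30 with all arrays and at 0.22, 0.25 and 0.47 without replicate 3. The 22 endothelial and endocardial genes had a median of -0.02 with 8 above 0, and of 0.14 with 19 above 0 without replicate 3. Sox17, an arterial transcription factor, and Cldn5, a tight junction protein of endothelium, stood at 0.17 and 0.15, and Robo4, an endothelial guidance receptor, at 0.13. Cldn5 was at 0.24 without replicate 3. The 14 members below 0 with all arrays included Kdr at -0.13, Icam2 at -0.09 and Esam at -0.08. Without replicate 3 these were at -0.01, 0.01 and 0.08. The 22 cushion mesenchyme genes had a median of -0.01 with 10 above 0, and of 0.13 with 18 above 0 without it. Snai1, a driver of the transition that forms cushion mesenchyme, stood at 0.12 with all arrays and at 0.23 without replicate 3, and Scx, a tendon and valve factor, at -0.23 and -0.04. No member of these lists was called or reached an unadjusted p under 0.05 with all arrays. In whole hearts, fewer cells of a type and less RNA per cell cannot be told apart, and 2 arrays remain when replicate 3 is left out.

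The erythroid list had the opposite pattern. Of 18 genes, 17 were above 0 with all arrays, with a median of 0.17, and 0 were above 0 without replicate 3, with a median of -0.28. Relative to the Tbx5+/- mean the list stood at -0.16 and -0.35 in replicates 1 and 2 and at 1.04 in replicate 3. The Tbx5+/- arrays themselves ranged from -0.64 to 0.70. Gata1, the master regulator of red cell genes, had 7.67, 7.49 and 8.84 in Tbx5+/-;Brg1+/- arrays, against 8.64, 7.81, 7.68, 6.89 and 7.53 in Tbx5+/- arrays. Its difference was 0.29 (SE 0.51), or -0.13 without replicate 3. Hba-x, an embryonic globin, stood at 0.10 and -0.02, and Pklr, the pyruvate kinase of red cells and liver, at 0.48 and -0.01.

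**Figure D3:**
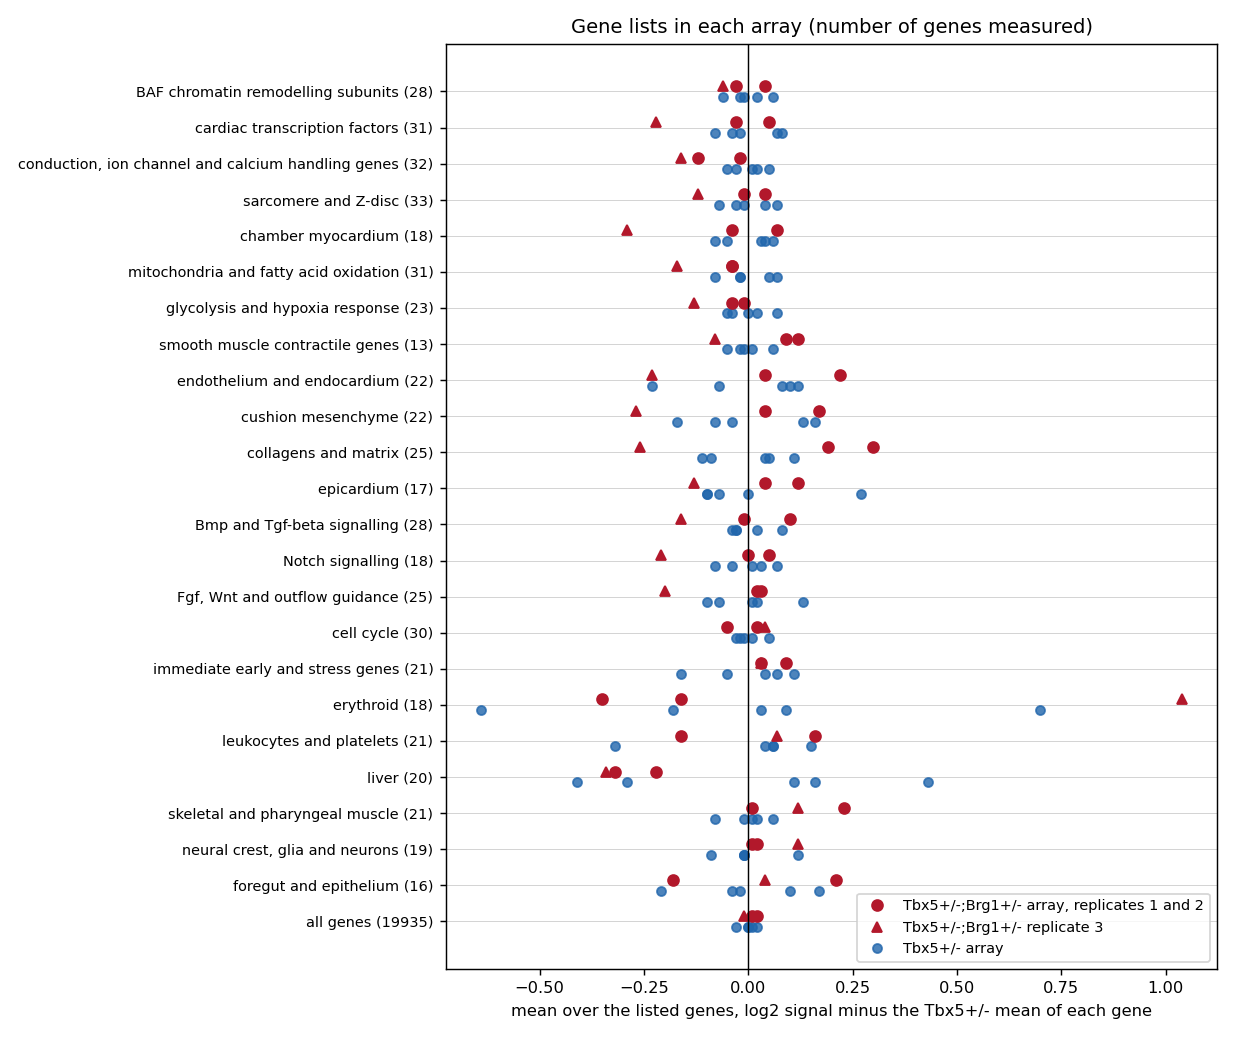
Each row is a gene list with its number of measured genes, and each point is 1 array at the mean over the listed genes of its log2 signal minus the Tbx5+/- mean, with the Tbx5+/-;Brg1+/- arrays in red above the Tbx5+/- arrays in blue and replicate 3 as a triangle. Replicate 3 is at 1.04 in the erythroid list and at -0.26 in collagens and matrix, where replicates 1 and 2 stand at 0.19 and 0.30.

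Genes of blood cells other than erythrocytes, and of liver, varied between arrays of each label. In the leukocyte and platelet list, described above, the platelet chemokine gene Pf4 stood at 0.56 (SE 0.43), and the macrophage genes C1qb and Cd68 at -0.28 and -0.19. The list was mixed, with 10 of 21 members above 0, among them the macrophage genes Lyz2 at 0.10 and Fcgr3 at 0.03. Its lowest member was F13a1, at -0.35. Without replicate 3, Pf4 was at 0.49, C1qb at -0.21, Cd68 at -0.25, Lyz2 at 0.04 and F13a1 at -0.59. Tubb1, the platelet tubulin, which is not on the list and was picked after its value was seen because it had the largest difference on the higher side, had 9.18, 8.75 and 9.69 in Tbx5+/-;Brg1+/- arrays, against 8.86, 8.38, 8.55, 8.31 and 7.81 in Tbx5+/- arrays. Its difference was 0.82 (unadjusted p = 0.028), and 0.58 without replicate 3. In the liver list 5 of 20 members were above 0, or 6 without replicate 3, and the median was -0.19 both ways. Its list mean was 5.57, 5.47 and 5.45 in Tbx5+/-;Brg1+/- arrays, against 6.22, 5.37, 5.49, 5.89 and 5.94 in Tbx5+/- arrays, so that replicates 2 and 3 of the Tbx5+/- group lay at the level of the Tbx5+/-;Brg1+/- arrays. Afp, the fetal serum protein of liver and yolk sac, had 6.88, 7.04 and 5.94 in Tbx5+/-;Brg1+/- arrays, against 9.87, 6.36, 6.97, 8.90 and 9.33 in Tbx5+/- arrays. Apob and Fgg, genes of lipoprotein and fibrinogen made in liver, stood at -0.71 (SE 0.38) and -0.46 (SE 0.27), and at -0.64 and -0.53 without replicate 3. Whether liver tissue was taken along with some hearts was not tested.

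Skeletal and pharyngeal muscle genes were above 0 in 15 of 21, with a median of 0.12 with and without replicate 3, and 3 of them (Chrng, Myod1 and Tcf15) had an unadjusted p under 0.05, all on the higher side. Over all genes 50.1% were above 0, and 1.75% had such a p on the higher side. Myod1, a master regulator of skeletal muscle, had 7.0, 6.24 and 6.69 in Tbx5+/-;Brg1+/- arrays, against 6.36, 6.22, 6.34, 6.30 and 5.97 in Tbx5+/- arrays, with a difference of 0.41 (SE 0.19). Replicate 2 lay inside the Tbx5+/- range. Tcf15 (paraxis), a factor of somites, had 6.55, 6.41 and 6.39 in Tbx5+/-;Brg1+/- arrays, against 6.15, 6.16, 5.93, 6.07 and 6.25 in Tbx5+/- arrays, without overlap and with a difference of 0.34 (SE 0.13, unadjusted p = 0.013). Chrng, the fetal acetylcholine receptor subunit, stood at 0.34 (SE 0.16; 0.47 without replicate 3), and Myh3, the embryonic skeletal myosin, at 0.33, or 0.59 without replicate 3. The 6 members below 0 included the contractile genes Myl1 at -0.30, Tnnt3 at -0.18 and Tnni2 at -0.11. Without replicate 3 these were at -0.21, -0.28 and -0.47. The list mean was 6.32, 6.11 and 6.22 in Tbx5+/-;Brg1+/- arrays, against 6.02 to 6.15 in Tbx5+/- arrays. The foregut and epithelium list had a median of 0.07 with 10 of 16 members above 0, and of 0.03 with the same count without replicate 3. Pax9, a factor of the pharyngeal pouches, had 5.92, 5.74 and 5.87 in Tbx5+/-;Brg1+/- arrays, against 5.51, 5.38, 5.66, 5.47 and 5.52 in Tbx5+/- arrays, and stood at 0.33 (SE 0.17). The endodermal factor gene Foxa1 stood at 0.23 and the epithelial cadherin gene Cdh1 at -0.20 (-0.14 without replicate 3). In the neural crest, glia and neuron list 12 of 19 were above 0 with a median of 0.06, and 11 with a median of 0.00 without replicate 3. Tfap2a and Tfap2b, transcription factors of early neural crest, stood at 0.26 and 0.27 with all arrays and at 0.14 and 0.13 without replicate 3.

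In the signalling lists, Fgf8, a growth factor of the outflow tract and pharynx, had 7.52, 7.20 and 7.55 in Tbx5+/-;Brg1+/- arrays, against 7.10, 7.08, 6.96, 7.25 and 6.97 in Tbx5+/- arrays. It stood at 0.35 (SE 0.14, unadjusted p = 0.016; 0.29 without replicate 3), with replicate 2 inside the Tbx5+/- range. Wnt2, expressed at the inflow pole of the heart, stood at -0.38 (SE 0.21; -0.48 without replicate 3), and the Wnt antagonist gene Sfrp1 at -0.27, or -0.09 without replicate 3. The list of Fgf, Wnt and outflow guidance genes had a median of -0.03 with 17 of 25 below 0, and of 0.01 with 14 above 0 without replicate 3. Heyl, a target gene of Notch, had 7.01, 6.92 and 6.87 in Tbx5+/-;Brg1+/- arrays, against 6.43, 6.86, 6.54, 6.87 and 6.76 in Tbx5+/- arrays, and stood at 0.24 (SE 0.12, unadjusted p = 0.045). Replicate 3 and the highest Tbx5+/- array were equal after rounding. Mfng, a modifier of Notch receptors, stood at -0.25 and the ligand gene Dll4 at -0.20 with all arrays, and at -0.07 and -0.13 without replicate 3. The 18 Notch genes had a median of -0.05 with 7 above 0, and of -0.02 with 8 above 0 without that array.

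In the Bmp and Tgf-beta list 16 of 28 members were below 0 with a median of -0.03. Without replicate 3, 19 were above 0 and the median was 0.06. Bmp5, a ligand of the growing myocardium, had 8.11, 8.06 and 8.12 in Tbx5+/-;Brg1+/- arrays, against 8.56, 8.31, 8.54, 8.37 and 8.21 in Tbx5+/- arrays. These did not overlap, and the difference was -0.30 (SE 0.24). The type I receptor gene Tgfbr1 stood at -0.21 (-0.11 without replicate 3) and the endothelial receptor gene Acvrl1 at 0.19 (0.12). Tgif1, a corepressor of Tgf-beta signalling that is not on the list, had 7.85, 8.01 and 7.93 in Tbx5+/-;Brg1+/- arrays, against 8.17, 8.17, 8.07, 8.24 and 8.43 in Tbx5+/- arrays. It did not overlap and stood at -0.29 (SE 0.11, unadjusted p = 0.014).

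The remaining lists had medians near 0 with all arrays. Of 30 cell cycle genes, 15 were above 0 with a median of 0.00 (16 without replicate 3, with the same median), and Cdk1, the mitotic kinase, stood at 0.12 and Plk1, another, at -0.09 (-0.16 without replicate 3). Of 21 immediate early and stress genes, 12 were above 0 with a median of 0.03, and 13 with the same median without replicate 3. Fos and Fosb, subunits of the AP-1 factor that are induced within minutes, did not overlap. Fos had 6.60, 6.62 and 6.75 in Tbx5+/-;Brg1+/- arrays, against 6.26, 6.38, 6.14, 6.41 and 6.55 in Tbx5+/- arrays, a difference of 0.31 (SE 0.14, unadjusted p = 0.04; 0.26 without replicate 3), and Fosb stood at 0.23 (SE 0.11). Of 17 epicardial genes, 7 were above 0 with a median of -0.02, and 12 with a median of 0.07 without replicate 3. Aldh1a1, a retinaldehyde dehydrogenase, had 8.01, 8.19 and 7.90 in Tbx5+/-;Brg1+/- arrays, against 7.52, 7.86, 7.86, 7.56 and 7.45 in Tbx5+/- arrays, without overlap and with a difference of 0.38 (SE 0.29; 0.45 without replicate 3). The keratin genes Krt8 and Krt19 stood at 0.20 (0.26 without replicate 3) and -0.14.

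Genes with a mean of log2 8 or more and no overlap included further genes in each direction. On the higher side, Abhd5, a coactivator of fat breakdown, had 8.55, 8.49 and 8.62 in Tbx5+/-;Brg1+/- arrays, against 8.42, 8.19, 8.28, 8.30 and 8.26 in Tbx5+/- arrays, a difference of 0.26 (SE 0.12). The superoxide dismutase gene Sod1 stood at 0.21 (0.14 without replicate 3), the mitochondrial ribosome gene Mrpl12 at 0.21, and Krtap5-3, Ppil1, Naa38, Nxt1 and Cdc34 between 0.15 and 0.18, with Naa38 at 0.11 without replicate 3. On the lower side, besides Gja5, Bmp5, Tgif1 and Acadl, the reductase gene Zadh2 stood at -0.36 (SE 0.15, unadjusted p = 0.022; -0.26 without replicate 3), the phosphatase regulator gene Arpp19 at -0.28, the folate enzyme gene Mthfd1l at -0.27 (-0.22) and the ubiquitin-conjugating enzyme gene Ube2n at -0.27.

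The direction of the Brg1 difference was set beside that in the other backgrounds, which use none of the same arrays. Between Brg1+/- and wild-type hearts limma called 2 of 19935 genes, Smarca4 and Igfbp2 (0.0100%). Between Nkx2-5+/-;Brg1+/- and Nkx2-5+/- hearts it called 8 (0.0401%). There the Smarca4 signal of Nkx2-5+/- replicate 3, 9.57, lay inside the range of the Nkx2-5+/-;Brg1+/- arrays, 9.26 to 9.60. Whether this array or Tbx5+/-;Brg1+/- replicate 3 is mislabelled was not tested. The test of the difference between the Tbx5+/- and wild-type backgrounds called 0 genes (0%), with a smallest adjusted p of 0.512 and 606 genes at an unadjusted p under 0.05 (3.04%).

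Over 19935 genes the differences in the Tbx5+/- background had a Pearson correlation of 0.21 with those in the wild-type background, and of -0.10 without replicate 3. Against the Nkx2-5+/- background the correlation was -0.16, and 0.18 without replicate 3. Over the 5171 genes with a mean of log2 8 or more, the correlation with the wild-type background was 0.42 with all arrays and -0.34 without replicate 3. With the Nkx2-5+/- background it was -0.34 with all arrays and 0.43 without replicate 3. Both signs thus turned with 1 array. The differences in the wild-type and Nkx2-5+/- backgrounds were themselves correlated at -0.53 over all genes. Over those with a mean of log2 8 or more the value was -0.79. The turns of sign are therefore not separate observations. These correlations are across genes, which are not independent replicates, and the arrays of each contrast differed in the erythroid list. The erythroid median was 0.17 in the Tbx5+/- background (-0.28 without replicate 3), 0.83 in the wild-type background and -1.46 in the Nkx2-5+/- background. Beside it, the sarcomere median was -0.04 (0.00 without replicate 3), -0.18 and 0.43, and the collagen median 0.06 (0.19 without replicate 3), -0.21 and 0.33. The part of blood in these medians was not tested.

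**Figure D4:**
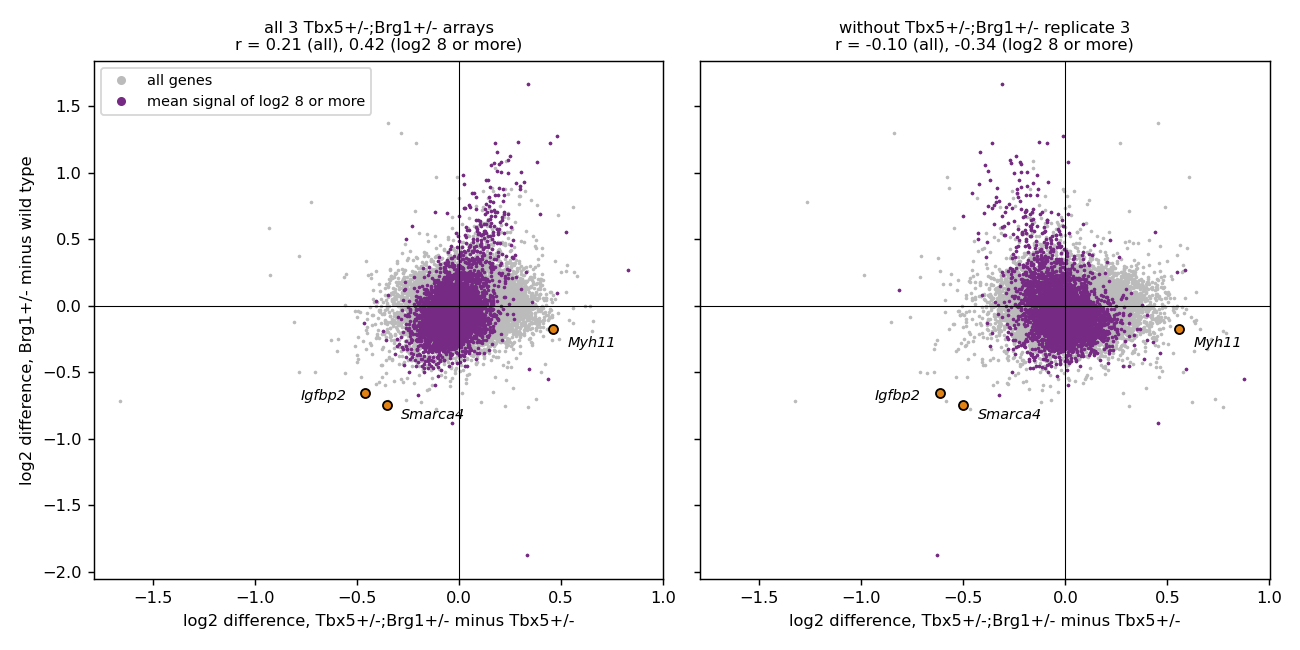
Each point is a gene, with the log2 difference of Tbx5+/-;Brg1+/- minus Tbx5+/- on the x axis and that of Brg1+/- minus wild type on the y axis, with all 3 Tbx5+/-;Brg1+/- arrays in the left panel and without replicate 3 in the right, and purple marks the genes with a mean signal of log2 8 or more. The cloud of bright genes leans upward in the left panel (r = 0.42) and downward in the right (r = -0.34), while Smarca4 and Igfbp2 are low on both axes in both panels.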

How the data were processed

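Per the submitters' processing notes, the authors used RMA in Affymetrix Power Tools (versions not stated), and the deposited values are log2 signals of 28815 probe sets on 27 arrays. They ran from 1.64 to 15.144, with array medians of 6.181 to 6.328, and were used as deposited. A genome build is not given in the sources used here. Probe sets were named through the platform annotation (21780 with 1 symbol, 1605 with several and 5430 unlisted), and the probe set with the highest mean was kept for each gene, leaving 19935 genes, of which 19853 matched RefSeq by gene identifier.

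Arrays were grouped by title. limma 3.58.1 in R 4.3.3 fitted 6 group means to all 27 arrays (21 residual and 6.71 prior degrees of freedom), two-sided, with Benjamini-Hochberg adjustment over all genes; all adjusted p-values are limma's. The fit was tested on simulated data. Single genes were also tested by exact permutation (scipy 1.17.1). Figures used matplotlib 3.10.9.

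Named genes were the deleted genes and Nkx2-5, the 12 smallest p in each direction, the 8 largest non-overlapping differences in each direction at a mean of log2 8 or more, the 8 smallest p in each direction without Tbx5+/-;Brg1+/- replicate 3, the 3 smallest p of each list, and 8 fixed genes; some were left out, as were clone, predicted and receptor-family names. Genes and lists were chosen with earlier results of these data known. The lists had 561 entries, of which 536 matched. Alternatives were other normalizations, filters, variance models, covariates, blocks and subsets, and each array left out in turn.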

Additional observations from a re-analysis of the deposited data

Results flagged for a closer look

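Of 143 values tested for an array apart from its group, 14 were met, all in the 5 Tbx5+/- arrays, since the 3 Tbx5+/-;Brg1+/- arrays are too few to be tested. Chance alone gives about 1 in 20 for separate values picked without use of these arrays. Many of the genes were picked by small p or lack of overlap in the same arrays, so 14 of 143 cannot be set against that share. Replicate 3 was the array apart in 7 of the 14, and the cause was not tested. It was the highest array for Gja5 at 9.74, Col8a1 at 6.54, Il18 at 5.37, Slc17a7 at 6.58 and the epicardium list mean at 8.87, and the lowest for Kcna5 at 5.64 and Tbx5 at 8.51. Replicate 1 was highest for Slc2a12 at 6.81 and lowest for Sod1 at 11.31. Replicate 2 was lowest for Krt8 at 8.48 and Sla2 at 5.34. Replicate 4 was highest for Epb41l4a at 5.74 and lowest for Fcrl1 at 4.72. Replicate 5 had the lowest leukocyte and platelet list mean, 6.51.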

How the results depend on the processing

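The comparison of Tbx5+/-;Brg1+/- with Tbx5+/- called 0 genes in 22 of 23 alternatives, each left-out array included, and 2 with array weights, one of them Cct8l1 (limma adjusted p = 0.0342). Of 117 named genes, 109 kept their sign in every alternative run. The other 8 turned with an array left out. Without Tbx5+/-;Brg1+/- replicate 3, the fit to these 2 groups (added after seeing the data) included, Gata1 was -0.13, Hba-x -0.023, Nkx2-5 0.025, Nppa 0.217, Pklr -0.014 and Shox2 -0.035. With 1 array left out in turn the ranges were -0.002 to 0.238 for Cldn5, -0.13 to 0.544 for Gata1, -0.023 to 0.187 for Hba-x, -0.134 to 0.025 for Nkx2-5, -0.168 to 0.217 for Nppa, -0.014 to 0.75 for Pklr, -0.035 to 0.28 for Shox2 and -0.131 to 0.102 for Tbx3. Nppa was also 0.053 with array weights and 0.017 with the erythroid covariate, and Tbx3 -0.009 with equal medians. The Gja5 difference was -0.522 to -0.325 with an array left out (exact permutation p = 0.0571 to 0.0952, the smallest those designs give), and that of Smarca4 -0.501 to -0.25.

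The replicate numbers did not pair the arrays (correlations of same-numbered deviations -0.17, -0.05 and 0.01). With the replicate block, 0 genes were called for Tbx5+/-;Brg1+/- against Tbx5+/- in all arrays or these groups, and Gata1 was -0.093 and -0.045 and Hba-x -0.003 and -0.032; the block gave 1 call for Brg1+/- against wild type and 412 for Nkx2-5+/-;Brg1+/- against Nkx2-5+/-. The difference between backgrounds gave 2 calls with array weights and 1 with the erythroid covariate. Brg1+/- against wild type gave 1 call with further quantile normalization, with these 4 groups alone, and with the erythroid or Y-linked covariate. It gave 4 without both Tbx5+/-;Brg1+/- replicate 3 and Nkx2-5+/- replicate 3. Nkx2-5+/-;Brg1+/- against Nkx2-5+/-, with 8 calls, gave 136 with quantile normalization, 1 with equal medians, 140 without the dimmest genes and 88 with a trended prior. It gave 3680 with array weights, 1 and 3 with the erythroid and Y-linked covariates, and 2363 without both these replicate 3 arrays. List medians moved by more than the spread between arrays in 38 of 529 list alternatives. The cause of these shifts was not tested.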

Other observations

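Further genes had a small unadjusted p when Tbx5+/-;Brg1+/- replicate 3 was left out. Of the 450 genes with an unadjusted p under 0.05 there, 256 (56.9%) had a mean signal below log2 5. H2-Ea, a class II antigen-presenting gene, had 4.63, 4.72 and 4.44 in Tbx5+/-;Brg1+/- arrays, against 4.32, 4.06, 4.39, 4.22 and 4.23 in Tbx5+/- arrays. It stood at 0.36 with all arrays and at 0.44 without replicate 3. The retrotransposon-derived gene Rtl9 stood at 0.32 and the defensin gene Defb3 at 0.38 with all arrays, and at 0.43 and 0.57 without replicate 3. Il18, an inflammatory cytokine gene, had 4.22, 4.45 and 5.13 in Tbx5+/-;Brg1+/- arrays, against 4.78, 4.92, 5.37, 4.93 and 4.90 in Tbx5+/- arrays. With all arrays Il18 stood at -0.38, the esterase gene Ces3b at -0.34 and the small GTPase gene Arl9 at -0.18. Without replicate 3 they were at -0.64, -0.53 and -0.36. Their limma adjusted p was 1.0 after rounding for each, with all arrays and without replicate 3.

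Of the 16 genes past 1.5-fold, 3 more were looked at after their values were seen. The liver serum protein genes Apoa1 and Ttr were highest in Tbx5+/- replicates 1, 4 and 5, the arrays with the highest liver list means. Both genes are members of that list and enter its means. Apoa1 had 6.01, 5.90 and 5.75 in Tbx5+/-;Brg1+/- arrays, against 7.92, 5.76, 5.83, 6.56 and 7.27 in Tbx5+/- arrays. Ttr had 5.82, 5.71 and 5.77 in Tbx5+/-;Brg1+/- arrays, against 6.51, 5.75, 5.75, 6.81 and 7.17 in Tbx5+/- arrays. Gabrp, a GABA receptor subunit gene, had 4.83, 4.49 and 4.80 in Tbx5+/-;Brg1+/- arrays, against 4.73, 4.93, 7.46, 5.60 and 4.87 in Tbx5+/- arrays, so that its difference of -0.81 rests mainly on 1 array.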
